A study of Mus musculus with 2 samples.

Results

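Receptor tyrosine kinases (RTKs) are cell-surface receptors with a tyrosine kinase inside the cell, and 53 mouse genes of this class, Eph receptors included, were described here among 34624 loci. The genes were chosen by membership in the class and found in the tables by their Ensembl gene identifiers, and all 53 had a locus. The tables give some overlapping genes as a single joined locus, and 6 of the 53 lay in such loci (Fgfr1, Fgfr2, Ddr1, Epha6, Epha10 and Ephb1), whose values cannot be given to the receptor alone. The samples were 2 replicates of untreated whole mouse embryos of embryonic day 10.5 (E10.5), from crosses of CBA/Ca with C57Bl/10 mice. They formed 1 group, so the data give levels, with no conditions to compare. The labels do not state if pooled or single embryos were used, and the spread between replicates may be technical.

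RTKs are switched on when a ligand from another cell, from the blood or from the matrix brings receptor chains together. The paired kinases then phosphorylate each other, adaptors such as Grb2 bind, and the Ras, phosphoinositide 3-kinase and phospholipase C pathways follow. In the midgestation embryo these receptors are known for guiding vessel growth (Kdr, Tek), mesenchyme and neural crest (Pdgfra), limb and facial outgrowth (Fgfr1, Fgfr2), tissue boundaries and axon paths (the Eph receptors), and growth of the whole embryo (Igf1r).

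Most RTK genes were expressed in the embryo, from the PDGF receptor Pdgfra and the Eph receptors Epha4 and Epha7 at 90.7 to 113 RPKM to the blood progenitor receptor Flt3 and the neural receptor Alk at 0.195 RPKM or less in both replicates. RPKM divides the reads of a locus by transcript length and library size. Of the 53 loci, 44 (83.02%) reached 1 RPKM in both replicates, the minimum used for detection, against 49.4% of all loci and 65.1% of protein-coding loci. At 10 RPKM or more in both replicates stood 26 of them (49.1%), against 29.0% of all loci and 42.2% of protein-coding loci. The median level was 18.1 RPKM in replicate 1 and 9.47 in replicate 2, against 1.76 and 1.00 over all loci and 8.38 and 5.52 over protein-coding loci. The 9 loci that missed the minimum were those of Epha8, Musk, Fgfr4, Mst1r, Insrr, Alk, Ros1, Flt3 and Ltk.

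**Figure D1:**
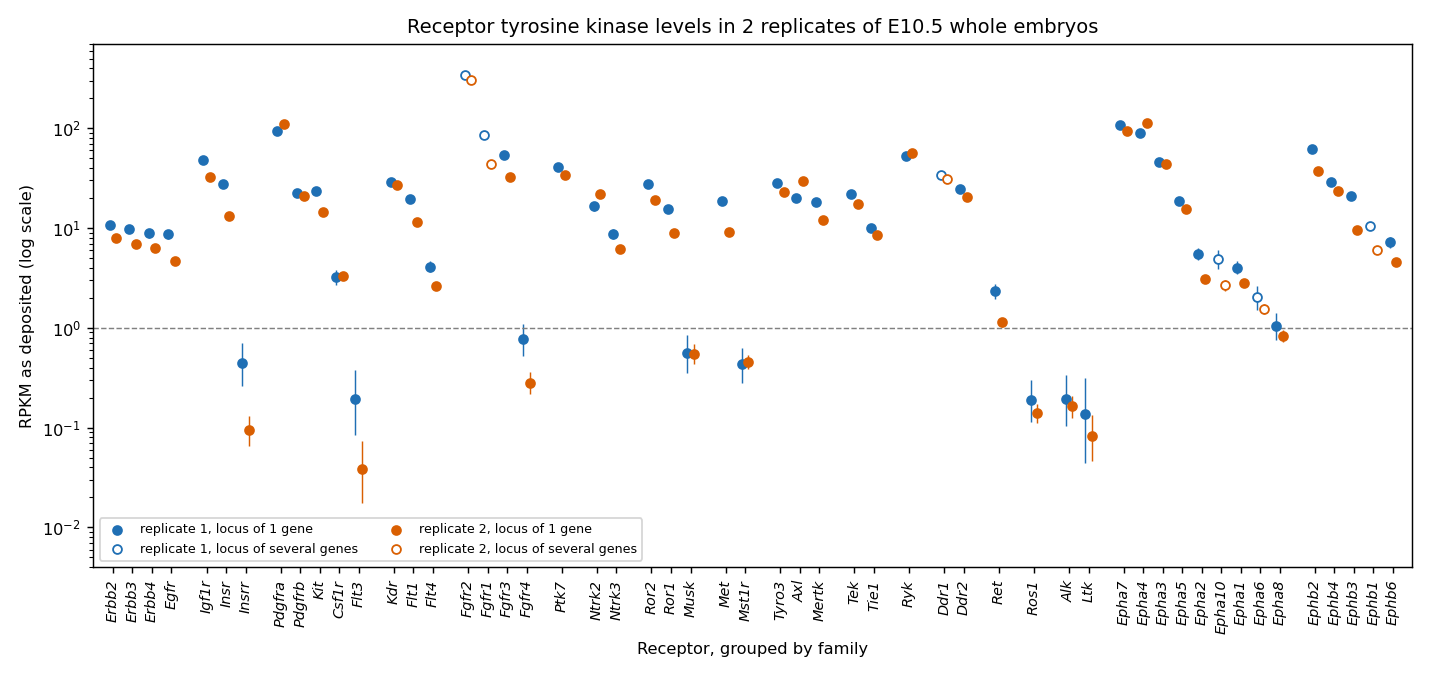
RPKM as deposited (log axis) of the 53 receptor genes in replicate 1 (blue) and replicate 2 (orange), grouped by family; bars are 95% exact Poisson intervals of the read counts and cover counting error only, open points are joined loci, and the dashed line marks 1 RPKM. The joined locus of Fgfr2 is highest at 344 and 308 RPKM, and Ltk is lowest by the mean of both replicates at 0.136 and 0.0815.

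Read counts summed over loci were 18318181 in replicate 1 and 117522171 in replicate 2, and the RTK loci held 50745 and 241069 of them, from 5 reads (Ltk, replicate 1) to 29082 (Pdgfra, replicate 2). The library sizes behind the authors' RPKM, taken as the median over loci with a single non-coding transcript, were 13711737 and 77921398 reads. The summed counts were above these sizes in both replicates. They differed 6.42-fold between replicates, against 5.68-fold for the sizes, and the cause was not tested. Reads per library size and the fixed-length levels given below rest on these sizes. For single-transcript coding loci the length behind the RPKM lay within 10% of the transcript without its 3′ untranslated part in 90.1% of 1682 loci, and within 10% of the whole transcript in 13.1%. For loci with several transcripts that length could differ between the libraries. Levels were therefore also computed as reads over 1 fixed length per locus, the longest listed transcript without its 3′ untranslated part, and this is called the fixed-length level below. Markers of the main cell types of an embryo were present: all 5 endothelial, 5 erythroid, 4 neural progenitor, 4 neuronal, 4 heart muscle, 4 mesenchymal and 4 epithelial markers reached 1 RPKM in both replicates, as did 3 of 4 skeletal muscle, 3 of 5 macrophage, 3 of 5 neural crest and 1 of 4 trophoblast and decidua markers. In whole embryos, fewer cells of a type and less RNA per cell cannot be told apart.

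RefSeq promoter windows were available for 45 of the 53 genes. The 250 bases before the start site held a median of 15 CpG dinucleotides, against 6 over all 32851 windows, and 32 of the 45 genes (71.1%) had 10 or more, against 37.8% of all windows. The receptor values count genes, whereas the others count windows (of 27025 genes), and no values for protein-coding genes alone are given. CpG-rich promoters are common in widely expressed and in developmental genes. Spearman's rho of CpG content and level over the 45 genes, a description across genes that share libraries, was 0.12. For 35 of the 45 the bases after the start site were found in a transcript of the gene, and for the others, the joined Fgfr2 locus and Pdgfra among them, the window may not be the promoter in use. For the 35, Ddr2 among them, the check does not show that transcription starts there, as bases inside a transcript would also pass. The Ddr2 window, whose 1 CpG is the low end of a range below, may thus not be a promoter. The 23 genes at 10 RPKM or more in both replicates had a median of 16 (range 1 to 42) and the 8 genes that missed 1 RPKM had a median of 14 (range 4 to 46). The sequences below, chosen after their values were seen, show this contrast: the collagen receptor Ddr2 (24.9 and 20.7 RPKM) with 1 CpG and the Wnt receptor Ryk (52.2 and 56.2 RPKM) with 33 among expressed genes, and Epha8 (1.04 and 0.832 RPKM) with 46 and Ros1 (0.191 and 0.140 RPKM) with 4 among genes that missed the minimum. Each is given 5′ to 3′ on the strand of the gene, ending at the base before the RefSeq start site, with each CpG in capitals.
Ddr2, GRCm38.p6 chr1:170088945-170089194, - strand: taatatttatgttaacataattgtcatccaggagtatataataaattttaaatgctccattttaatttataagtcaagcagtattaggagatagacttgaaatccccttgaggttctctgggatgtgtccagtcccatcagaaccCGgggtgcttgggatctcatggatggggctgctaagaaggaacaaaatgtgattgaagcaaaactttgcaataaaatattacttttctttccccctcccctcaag
Ryk, GRCm38.p6 chr9:102834670-102834919, + strand: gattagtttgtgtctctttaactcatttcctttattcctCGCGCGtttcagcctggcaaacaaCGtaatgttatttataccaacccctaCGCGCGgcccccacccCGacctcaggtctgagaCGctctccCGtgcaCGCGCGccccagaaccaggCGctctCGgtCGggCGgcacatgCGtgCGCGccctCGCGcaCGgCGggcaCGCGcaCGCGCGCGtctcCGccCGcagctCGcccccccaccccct
Epha8, GRCm38.p6 chr4:136956817-136957066, - strand: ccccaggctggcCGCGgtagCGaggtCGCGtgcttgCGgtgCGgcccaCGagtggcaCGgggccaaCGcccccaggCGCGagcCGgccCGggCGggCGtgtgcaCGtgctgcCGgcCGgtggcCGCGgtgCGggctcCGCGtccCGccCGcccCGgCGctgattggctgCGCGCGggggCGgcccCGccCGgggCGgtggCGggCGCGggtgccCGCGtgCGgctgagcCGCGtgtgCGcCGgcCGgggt
Ros1, GRCm38.p6 chr10:52195245-52195494, - strand: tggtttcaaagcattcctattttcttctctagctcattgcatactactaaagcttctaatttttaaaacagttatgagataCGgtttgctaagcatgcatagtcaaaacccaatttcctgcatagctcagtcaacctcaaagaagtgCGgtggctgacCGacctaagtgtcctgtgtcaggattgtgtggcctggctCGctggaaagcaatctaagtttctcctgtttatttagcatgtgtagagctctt
The Epha8 window, of a gene with 44 and 200 reads in the libraries, had a G and C content of 84.0%, and the Ddr2 window, of a gene with 951 and 4517 reads, had 37.6%.

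Levels within a receptor family were compared as differences of log2(RPKM + 1) in each replicate, a scale that understates differences of low genes. A pair counted as beyond the spread if the sign was shared by the replicates and the mean difference passed a limit. The limit was 2 SD of the replicates' log2 ratio among the 1000 single-gene loci closest in level, taking the larger value of the pair. No p-value is given, as 2 replicates a gene cannot reach a two-sided exact permutation p below 0.333. Of 85 pairs within families, 53 were beyond the spread. On fixed-length levels 58 were, of which 50 were shared. No share over pairs of other loci is given, so these counts do not set receptor families apart. Of 52 neighbours in the order of mean RPKM, the joined Fgfr2 locus and Pdgfra differed beyond the spread and no other neighbours did, which sorting by the same values favours.

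**Figure D2:**
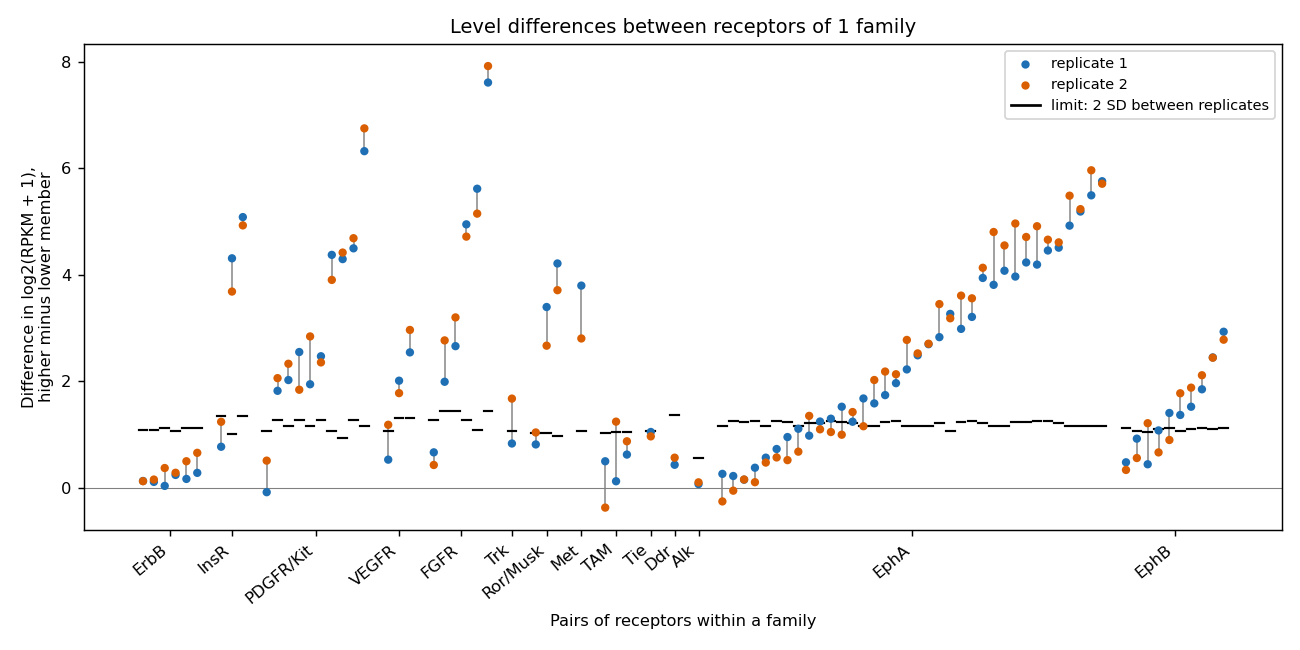
Difference in log2(RPKM + 1) between the receptors of each family, higher minus lower member by the mean, in replicate 1 (blue) and replicate 2 (orange); black dashes mark the limit of 2 SD of the log2 ratio between replicates. All 6 ErbB pairs lie under their limits, and 25 of 36 EphA pairs lie above them in the mean of both replicates.

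Among the PDGF and stem cell factor receptors, Pdgfra far exceeded its relatives. Pdgfra, the receptor of mesenchyme and neural crest derivatives, had 94.3 RPKM (replicate 1) and 110.4 RPKM (replicate 2), and Pdgfrb, the receptor of pericytes and vascular smooth muscle, at 22.4 and 21.2. The log2 difference was 2.18 ± 0.22 (SD, n = 2), beyond the limit of 1.16, and the replicates of each gene did not overlap with those of the other. Kit, the stem cell factor receptor of melanoblasts, germ cells and blood progenitors, stood at 23.7 and 14.5 RPKM, but the length behind its RPKM (1374 and 1625 bases) was under the 3064 bases of its longest transcript, and its fixed-length levels were 10.6 and 7.71. Against Pdgfrb, Kit was within the spread on RPKM (0.22 ± 0.42 for Pdgfrb over Kit, with a change of sign between replicates) and below it on fixed-length levels by 1.17. Csf1r, the macrophage growth factor receptor, was low (3.22 and 3.33 RPKM), beside 5 macrophage markers that ran from 0.895 (Fcgr1) to 13.4 (Cd68) in replicate 1 and from 1.10 (Emr1) to 8.96 (Cd68) in replicate 2, and the part of macrophage number in its level was not tested. Flt3, a receptor of early blood progenitors, had 8 and 9 reads (0.194 and 0.0384 RPKM) and was the lowest of the 5 genes.

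All the ligands of these receptors that had a locus, 7 of 7, were detected. The PDGF receptor ligand Pdgfc (50.8 and 21.8 RPKM, joined) was highest, followed by Pdgfa (14.5 and 6.90, joined) and the Kit ligand Kitl (10.985 and 7.53). Pdgfd (9.67 and 7.24) and the Csf1r ligand Csf1 (7.996 and 3.42) stood close to Kitl. Pdgfb (2.37 and 1.85) and Il34, the other ligand of Csf1r (1.19 and 1.30, joined), were low.

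In the FGF receptor family, 3 of 4 loci were detected, 2 of them joined (Fgfr1 and Fgfr2), and that of the liver and muscle receptor Fgfr4 was not. Fgfr4 stood at 0.772 and 0.281 RPKM, with 31 and 65 reads. The Fgfr2 locus had the highest level of the class (344 and 308 RPKM), but it also holds the transcriptional corepressor Ctbp2, and its fixed-length levels were 129 and 98.9. Fgfr1, the FGF receptor of mesenchyme, stood at 85.7 and 44.4 RPKM in a locus with Gm16159 and an unnamed gene, and at 45.2 and 36.0 on fixed lengths. Fgfr3, the receptor of neural progenitors and later of growth cartilage, was the member with a locus of its own among the abundant FGF receptors: it stood at 53.6 and 32.7 RPKM and at 22.3 and 15.6 on fixed lengths. The log2 difference of Fgfr3 over Fgfr4 was 4.83 ± 0.16, past its limit of 1.27, whereas Fgfr1 against Fgfr3 was within it (0.55 ± 0.17).

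Of 18 FGF ligand loci 11 were detected, and none was above the RPKM of a detected FGF receptor locus in the same replicate. The highest, Fgf2 (31.0 and 17.5 RPKM) and Fgf20 (19.6 and 12.5), lay in joined loci, and Fgf9, a ligand of epithelium and mesothelium, followed (9.10 and 5.41). Fgf8, the ligand of the limb ridge and the isthmus, stood at 7.56 and 3.93, and Fgf10, the limb and lung mesenchyme ligand, at 7.20 and 3.85 (joined). The hormone-like Fgf23 was lowest, with 0 reads in replicate 1 and 0.0290 RPKM in replicate 2. Klb, a coreceptor of hormone-like FGFs, differed between replicates (4.13 and 0.939 RPKM), and Kl, the other such coreceptor, was near 0 (0.0925 and 0.0325).

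The EphA receptors were sharply graded. Eph receptors bind ephrins on neighbouring cells, and EphA receptors mainly bind the ephrin-A ligands. Epha4, a receptor of hindbrain segments, limb and motor axons, stood at 90.7 and 113 RPKM, and Epha7, a receptor of the neural tube and brain, at 109 and 94.7. Neither was higher in both replicates (log2 difference -0.01 ± 0.37 for Epha4 over Epha7). Epha3 (45.4 and 43.7 RPKM) came next, under Epha4 by 1.17 ± 0.26 and under Epha7 by 1.17 ± 0.10, both within the limit of 1.21. The difference of Epha3 from Epha4 was beyond the limit in replicate 2 alone (1.35) and on fixed-length levels (1.15, limit 1.02), and that from Epha7 in replicate 1 alone (1.246). Both differences were also beyond the limit when the spread was taken from all loci or from protein-coding loci, so the call depends on the loci that set the spread.

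Epha7, Epha4 and Epha3 made up 38.8%, 32.2% and 16.1% of the summed RPKM of the 9 EphA loci in replicate 1, and 34.1%, 40.7% and 15.7% in replicate 2. Epha5, a receptor of the forebrain and retinal map, stood below them at 18.6 and 15.6 RPKM, under Epha3 by 1.33 ± 0.13 and beyond the limit of 1.21, though not at 3 SD. The epithelial receptors Epha2 (5.53 and 3.09) and Epha1 (4.02 and 2.79) formed a low group with Epha10 (4.87 and 2.66, joined), a receptor that lacks kinase activity, and the pairs of these 3 genes were within the spread. Epha6 (2.03 and 1.55, joined) and Epha8 (1.04 and 0.832) were lowest. Epha2 exceeded Epha8 by 1.42 ± 0.37, beyond the limit of 1.17, though not in replicate 2 alone (1.16), at 3 SD or with smaller pseudocounts, and Epha10 exceeded Epha8 by 1.26 ± 0.37 on RPKM but by 0.56 on fixed-length levels, within the limit.

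All 5 EphB receptors were detected. Ephb2, a receptor of commissural axons and the palate, was highest (61.9 and 37.6 RPKM), and Ephb4, the receptor of venous endothelium, was next (28.8 and 23.3), within the spread of Ephb2 (0.87 ± 0.29 for Ephb2 over Ephb4). Ephb3 stood at 20.9 and 9.47, Ephb1 at 10.5 and 6.09 (joined) and the kinase-inactive Ephb6 at 7.25 and 4.61. Ephb4 exceeded Ephb6 by 1.98 ± 0.19, beyond the limit of 1.12. Ephb3 exceeded Ephb6 by 1.15 ± 0.36, barely beyond the same limit, and was within it in replicate 2 alone (0.90), on fixed-length levels (0.90), at 3 SD and with smaller pseudocounts. Ephb3 against Ephb4 was within the spread (-0.83 ± 0.54) but beyond it in replicate 2 alone (-1.21), on fixed-length levels (-1.49) and with the spread of protein-coding loci.

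All 8 ephrin loci were detected. Efnb2, the ephrin of arterial endothelium and a ligand of Ephb4, was highest (106 and 90.3 RPKM), and Efna4 (68.3 and 40.8, joined with Adam15) and Efnb1, the ephrin of craniofacial mesenchyme (49.6 and 38.5), followed. Efna5 (15.0 and 6.42), Efna2 (8.41 and 7.87), Efnb3 (8.19 and 6.59) and Efna1 (5.49 and 4.70) were lower, and Efna3 was lowest (2.05 and 1.35, joined).

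The vascular receptors were at middle levels, with the receptor of lymphatic vessels lowest. Kdr, the main signalling receptor for the vessel growth factor Vegfa, stood at 28.8 and 27.2 RPKM, Flt1, a decoy receptor for it, at 19.6 and 11.4, and Flt4, the Vegfc receptor, at 4.11 and 2.62. Kdr exceeded Flt4 by 2.75 ± 0.30, beyond the limit of 1.30, and Flt1 exceeded Flt4 by 1.90 ± 0.16, also beyond it, though not at 3 SD or with a pseudocount of 0.01. Flt1 against Kdr was within the spread on RPKM (-0.86 ± 0.46, limit 1.08) but beyond it in replicate 2 alone (-1.19), on fixed-length levels (-1.53) and with the spread of protein-coding loci. Tek, the angiopoietin receptor, stood at 21.9 and 17.5 and the orphan-like Tie1 at 10.0 and 8.47. Tie1 against Tek was within the spread on RPKM (-1.01 ± 0.06, limit 1.08) and on fixed-length levels (-0.77, limit 0.96). On RPKM it was beyond the spread of protein-coding loci. The 5 endothelial markers spanned 16.4 (Esam) to 95.9 RPKM (Egfl7) in replicate 1 and 12.2 to 87.5 in replicate 2.

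All 5 VEGF family ligands were detected. Vegfa was highest (78.7 and 45.2 RPKM), then Vegfb (14.5 and 9.49) and Vegfc (13.5 and 7.31), and Pgf, the placental growth factor, was lowest (2.43 and 2.15). Of the angiopoietins, the Tek agonist Angpt1 (32.8 and 32.8, joined) was at the same level in both replicates, and Angpt2, which can oppose it, stood at 22.8 and 11.5. The VEGF coreceptors Nrp1 (55.6 and 56.8, joined) and Nrp2 (66.6 and 75.3) were above all 3 VEGF receptors in both replicates.

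Igf1r, the receptor for the growth factors Igf1 and Igf2, was the highest insulin-type receptor. It stood at 47.9 and 32.2 RPKM, against 27.6 and 13.1 for the insulin receptor Insr and 0.446 and 0.0938 for the orphan receptor Insrr. Insr against Igf1r was within the spread on RPKM (-1.01 ± 0.33, limit 1.35) and beyond it on fixed-length levels (-1.50, limit 1.16) and with the spread of protein-coding loci. Both exceeded Insrr beyond the spread. The ligands Igf2 (151 and 96.4 RPKM, joined) and Igf1 (56.8 and 57.4) were above the receptors on RPKM, whereas on fixed-length levels Igf1r (48.1 and 32.3) was above both Igf2 (45.0 and 24.9) and Igf1 (25.0 and 23.3). The fixed length of the joined Igf2 locus was 4778 bases, against 1422 and 1235 behind its RPKM. That length need not be of an Igf2 transcript, so the order of Igf2 and Igf1r on fixed lengths is not settled. Ins1 (0 reads, then 0.101 RPKM) and Ins2 (0 reads, then 0.109 RPKM) were the lowest of the 4 ligands. Igf2r, which takes up Igf2 without signalling as an RTK, stood at 106 and 102.

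The 4 ErbB receptors, of which Erbb2 has no ligand of its own and Erbb3 has little kinase activity, were all detected at low to middle levels. Erbb2 was at 10.7 and 7.91 RPKM, Erbb3 at 9.83 and 6.98, Erbb4 at 8.89 and 6.31 and Egfr at 8.63 and 4.64. No pair of the 6 was beyond the spread on either length scale, and the order was the same in both replicates on RPKM. The limits of 1.08 to 1.12 are wide, so this does not show equal levels: on fixed lengths Erbb2 (10.7 and 7.96) exceeded Erbb4 (5.77 and 4.14) by 0.80 in the mean of both replicates. Of 11 ErbB ligand loci 3 were detected: the neuregulin Nrg1 (9.96 and 6.81 RPKM, joined), a ligand of Erbb3 and Erbb4 in heart and neural crest, Nrg4 (2.23 and 2.37, joined) and Hbegf (1.75 and 1.63). Nrg3 (2.07 and 0.894) and Egf (1.31 and 0.773) reached the minimum in replicate 1 alone, and Btc was lowest (0 reads, then 0.0354 RPKM).

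The receptors linked to Wnt and planar polarity signals were well expressed. Ryk, a Wnt receptor whose kinase is inactive, stood at 52.2 and 56.2 RPKM. Ptk7, also without kinase activity and known for neural tube closure, stood at 40.6 and 34.1. Ror2, the Wnt5a receptor of limb and skeleton, was at 27.9 and 19.2 and Ror1 at 15.4 and 8.83, within the spread of each other (-0.93 ± 0.16 for Ror1 over Ror2, limit 1.03). Replicate 2 alone gave -1.04, beyond it, and the RPKM difference was also beyond the spread of protein-coding loci. On fixed-length levels the difference was smaller (-0.34, limit 0.86) and within the spread. Musk, the organizer of the neuromuscular junction, missed the minimum (0.560 and 0.546 RPKM), and its partners Lrp4 and Dok7 stood at 25.6 and 15.7 and at 0.347 and 0.357. The ligands Wnt5a (51.6 and 31.8, joined) and agrin, Agrn (113 and 103), were both abundant. Erbb3, Ptk7, Ryk, Epha10 and Ephb6 are 5 genes whose products are known to have little or no kinase activity. They were grouped here from general knowledge, and the group need not be complete. Of these 5, Ryk and Ptk7 were among the abundant members and the others were not.

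The TAM receptors, which clear dying cells, stood close together. Tyro3 was at 28.5 and 22.9 RPKM, Axl at 19.8 and 29.8 and Mertk at 18.1 and 12.0, and no pair of the 3 was beyond the spread, although Axl over Mertk was in replicate 2 alone (1.24) and Tyro3 over Mertk (0.75 ± 0.18) was with the spread of protein-coding loci. On fixed-length levels Mertk was the highest of them (26.4 and 17.7) and Axl the lowest (12.9 and 12.2). The fixed length of Mertk (3075 bases) was under the length behind its RPKM (4479 and 4525), which raises its fixed-length level. The order of the 3 genes thus depends on the length used. Their ligand Pros1 (32.2 and 18.4) stood above Gas6 (4.07 and 3.15). The collagen receptors Ddr1 (34.0 and 31.1, joined), of epithelium, and Ddr2, of mesenchyme, did not differ beyond the spread (0.50 ± 0.09, limit 1.37).

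Receptors of nerve and organ buds ranged from middle levels to the minimum. Ntrk2, the receptor for Bdnf, stood at 16.5 and 21.9 RPKM and Ntrk3, the receptor for Ntf3, at 8.81 and 6.16. The difference of 1.26 ± 0.60 was beyond the limit of 1.08, but replicate 1 alone (0.83) and fixed-length levels (0.51) were within it, and 3 SD was not reached. Their ligands Ntf3 (15.4 and 11.8) and Bdnf (7.77 and 7.08) were detected, and Ntf5 was lowest (1.53 and 1.195). Met, the hepatocyte growth factor receptor of migrating muscle precursors, stood at 18.9 and 9.17, beside 6.13 and 3.91 for its ligand Hgf. Its relative Mst1r missed the minimum (0.432 and 0.456), and Met exceeded it by 3.30 ± 0.70, beyond the limit of 1.06. Mst1, the ligand of Mst1r, lay in a joined locus with Rnf123 and Gmppb (66.3 and 60.9). Ret, the receptor of kidney bud and enteric neural crest, was just detected (2.32 and 1.14), with its ligand Gdnf at a like level (2.76 and 1.34) and its coreceptor Gfra1 higher (11.9 and 8.59). Of the related ligands, Pspn was detected (2.00 and 1.54), and Artn (0.927 and 0.515) and Nrtn (0.545 and 0.617) were not.

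Alk (0.195 and 0.164 RPKM) and Ltk (0.136 and 0.0815), receptors of neural tissue and pigment cells, were near the bottom of the class, and the orphan receptor Ros1 stood with them. The heparin-binding growth factors Ptn (269.7 and 385) and Mdk (291 and 306), described as ligands of Alk among other receptors, were the most abundant ligands of all lists. No other ligands of Alk or Ltk were listed, so their levels were not examined. Exact Poisson intervals (95%) were 0.104 to 0.333 and 0.125 to 0.210 for Alk and 0.0442 to 0.318 and 0.0466 to 0.132 for Ltk, so their order was not resolved at this depth.

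**Figure D3:**
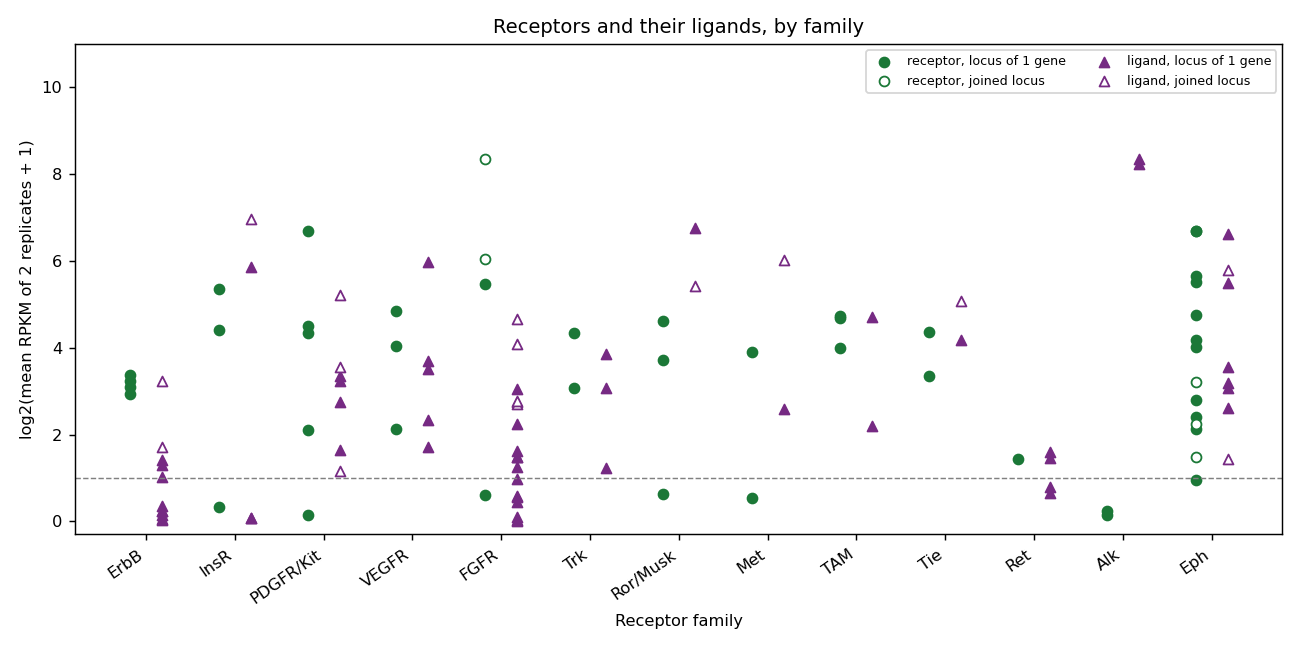
Mean level of each receptor (green circles) and ligand (purple triangles) by family, as log2(mean RPKM of 2 replicates + 1); open symbols are joined loci and the dashed line marks 1 RPKM. In the Alk family the receptors lie near 0, and the listed ligands Ptn and Mdk, described for other receptors too, lie above 8. The FGF ligands lie under the 3 detected FGF receptor loci.

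In all, 51 of 70 ligand loci and 45 of 49 loci of coreceptors, adaptors and inhibitors were detected, against the 49.4% of all loci and the 65.1% of protein-coding loci given above. All 23 adaptor and enzyme loci reached the minimum. Rasa1, a Ras GTPase activator (260.1 and 242 RPKM), and Plcg1, the receptor-bound phospholipase (260.4 and 189, joined), were highest, followed by the adaptor Crk (144 and 119.5), and Irs4 was lowest (3.81 and 2.43, joined). The 14 measured inhibitor loci were detected too, led by Spred1 (66.9 and 59.8), Lrig3 (34.4 and 33.3) and the ubiquitin ligase Cblb (37.5 and 26.5), with Spry4 lowest (3.62 and 2.24). Of 12 coreceptor loci 8 passed, with Igf2r, Nrp2 and Nrp1 highest and Kl lowest.

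The replicates differed in a common direction. Of the 44 detected RTK loci, 38 (86.4%) had a lower RPKM in replicate 2, as did 78.3% of all 17090 detected loci, and the median log2 difference was -0.42 for RTKs and -0.36 for all. The 6 loci with a higher RPKM in replicate 2 were Axl, Ntrk2, Epha4, Pdgfra, Ryk and Csf1r. By reads per library size, 39 of the 44 (88.6%) were lower in replicate 2, against 81.3% of all detected loci. Insr (27.6 and 13.1) and Ephb3 (20.9 and 9.47) were the 2 loci (4.55%) that differed 2-fold or more on the log2(RPKM + 1) scale, against 9.86% of all detected loci. Both were higher in replicate 1, as were 6.92% of all detected loci, and none was 2-fold higher in replicate 2, as were 2.94%. After replicate 2 was scaled by the median ratio of detected loci, no RTK locus did.

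Axl was the locus whose direction depended on the scale. Its RPKM was 1.501-fold as high in replicate 2 as in replicate 1, while its reads per library size were 0.950-fold. The length behind its RPKM was 1867 bases in replicate 1 and 1181 in replicate 2. Fgfr1 showed the opposite shift, at 0.518-fold by RPKM and 0.797-fold by reads, with lengths of 1784 and 2745 bases. Epha4 (1.246-fold by RPKM and 1.23-fold by reads), Ntrk2 (1.33 and 1.32) and Pdgfra (1.17 and 1.16) were higher in replicate 2 on both. In 22 of the 53 loci the length behind the RPKM agreed between replicates within 1%, with no share over all loci to set beside it.

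**Figure D4:**
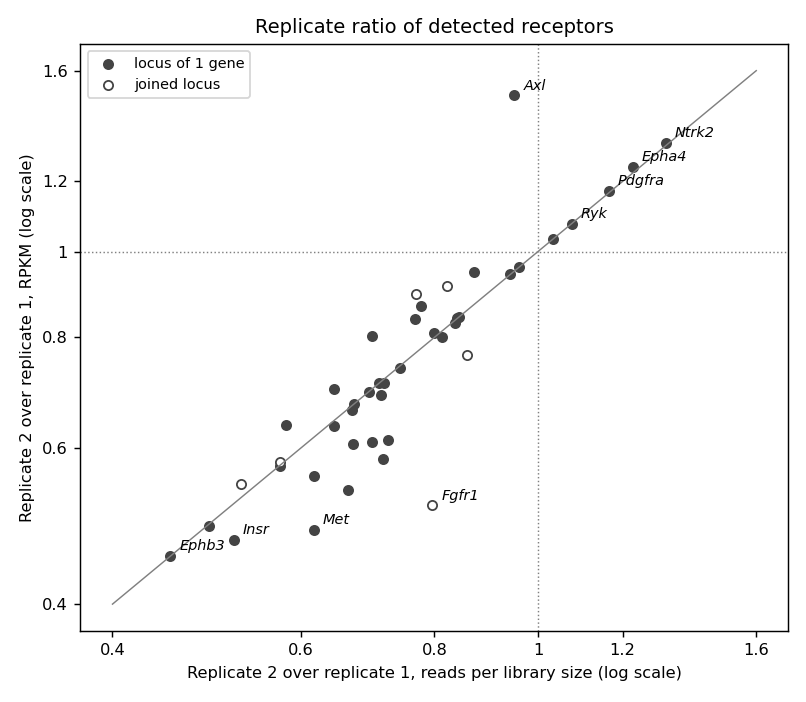
Replicate 2 over replicate 1 for the 44 detected receptors, by reads per library size (x, log axis) and by RPKM (y, log axis); the line marks equal ratios and open points are joined loci. Axl lies far above the line at 0.950 and 1.501, and Fgfr1 lies below it at 0.797 and 0.518.

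On fixed-length levels 15 of the 53 genes were over 1.5 times lower than on RPKM, and none was over 1.5 times higher. Among them were Fgfr2 (129 and 98.9), Fgfr3, Kit, Ntrk2 (7.46 and 9.83), Axl and Flt1 (10.1 and 7.22). Dividing by the longest transcript favours lower values, and no share over all loci is given, so these counts do not set the receptors apart. The 4 highest loci were the same on both scales, in the order Fgfr2, Epha4, Pdgfra and Epha7 on fixed lengths. Spearman's rho between the scales over the 53 genes was 0.97, as a description.

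**Figure D5:**
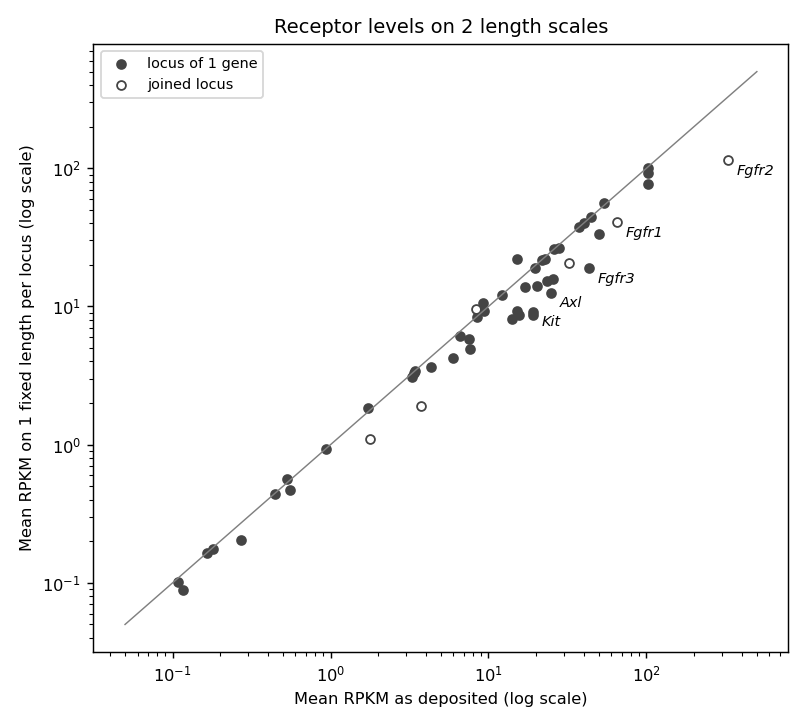
Mean level of the 53 receptor genes on RPKM as deposited (x, log axis) and on reads over 1 fixed length per locus (y, log axis), with open points for joined loci and a line of equality. Most points lie on or under the line, and the joined Fgfr2 locus lies furthest under it.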

How the data were processed

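Total RNA of whole embryos was sequenced from 2 replicates. Reads were mapped with TopHat to mm9, per the submitters' processing notes. For the counter, annotation release, filters and use of strand nothing is stated, and sense and antisense reads of overlapping genes may be mixed. Per the file headers, the authors deposited RPKM (reads over transcript length and library size) and raw read counts per locus. With a single group, no test on counts was made.

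Rows with the same gene identifiers were summed, giving 34624 loci from 34676 rows. Symbols matched 32642 of 37681 identifiers (86.6%). Transcript lengths and gene types came from GENCODE M21 on GRCm38, another build, and no coordinate of it was used. Promoter windows are RefSeq's, on GRCm38.p6. No window was matched for 8 genes (Insr, Insrr, Erbb3, Pdgfrb, Csf1r, Fgfr1, Ntrk3 and Ret). Flt3l and Spry3 had no locus and were not analysed here. Members and lists were chosen with earlier results of these data known. Text names every member, the highest 3 and the lowest gene of each further list, other ligands of described receptors, and cell type markers. Pair calls were tested on simulated data with a smaller spread between replicates than these data. That checked the code and does not bear on calls near the limit. Python 3.11.15, pandas 2.3.3 and scipy 1.17.1 were used. Fixed lengths and the spread from protein-coding loci were added after seeing the data, and the other alternatives (minimum, pseudocount, scaling, rows, joined loci, each replicate left out) were set earlier. Count intervals cover counting error only.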

Additional observations from a re-analysis of the deposited data

How the results depend on the processing

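No paired analysis was possible because there is 1 group. Counts of detected receptors (38 to 47, main value 44), ligands (36 to 58, main value 51) and pathway genes (39 to 48, main value 45), of receptors at 10 RPKM (22 to 32, main value 26), the median level (9.34 to 19.2 RPKM, main value 15.1) and the count of pairs beyond the spread (46 to 63 of 85, main value 53, and 38 of the 60 without a joined locus) stayed within 1.5 times of the main value, or for the median within the spread between replicates, under all but the following settings. With both members required to reach 1 RPKM in both replicates, 35 pairs were beyond the spread, out of the 64 such pairs. Receptors 2-fold apart between replicates numbered 0 after scaling and 1 on fixed lengths, against 2. The cause was not tested. With a replicate left out, the ranges were 54 to 55 pairs, 44 to 45 receptors, 51 to 54 ligands and 45 to 46 pathway genes detected, 26 to 32 receptors at 10 RPKM and a median of 9.47 to 18.1 RPKM. Leaving out replicate 1 changed 8 of the 85 pair calls (5 gained, 3 lost) and leaving out replicate 2 changed 3 (2 gained, 1 lost). Fixed lengths gained 8 and lost 3, the protein-coding spread gained 10, the spread from all loci gained 2, 3 SD lost 7, and pseudocounts of 0.1 and 0.01 lost 3 and 6. No called pair changed sign under any setting. Depth limits the low receptors most: Ltk, Flt3 and Alk had 5, 8 and 13 reads in replicate 1.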
